A study of Homo sapiens with 24 samples.

Results

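The MAGE A, B and C genes are a family of cancer-testis genes on chromosome X, and their RNA was followed here through all 24 libraries of an RNA-seq experiment on A549 and HCT116 cells. Members were the symbols that begin with MAGEA, MAGEB or MAGEC followed by a number, which gave 29 genes of 60641 symbols: 15 MAGEA, 11 MAGEB and 3 MAGEC genes. The family was chosen by 1 measured value known from these data, the lower MAGEA6 counts of A549 MSTRG.2513.6 KO cells, so the values of that comparison are given as description and carry no test.

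A549 is an established line from a lung adenocarcinoma, and HCT116 is an established line from a colorectal carcinoma. The knockouts (KOs) removed, by CRISPR/Cas9, the DNA-binding domain (DBD) of 1 of 3 noncoding transcripts that are named only by assembly numbers. A549 was represented by 3 libraries each of MSTRG.2513.6 KO cells, WT B cells and MSTRG.4401.1 KO cells. HCT116 was represented by 3 libraries each of MSTRG.4401.1 KO cells, WT B cells, MSTRG.2513.6 KO cells, WT A cells and MSTRG.34636.7 KO cells. The A and B marks are those of the library names, and what they stand for is not given in the sources used here. Wild-type cells carried no edit, and no library came from cells taken through editing without a deletion, so the deletion and the other steps of making KO cells cannot be told apart. Whether a KO line was 1 clone, and whether the 3 libraries of a group came from separate cultures, is also not given, so p-values measure only the spread between these libraries.

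MAGE stands for melanoma antigen. In normal tissue the A, B and C genes are active mainly in germ cells of the testis and are silent elsewhere, with DNA methylation of CG sites at their promoters as a known part of the silencing. Many tumours express some of them, and pieces of the proteins are then shown to cytotoxic T cells. The proteins share the MAGE homology domain, through which they bind RING-type ubiquitin ligases: MAGEA3 and MAGEA6 bind TRIM28, and in cells that make them this complex is known to mark AMP-activated protein kinase for degradation.

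The libraries held between 25799359 and 102261808 counts. A floor of 3 counts, taken as the limit that a count of 0 allows, was 0.0293 to 0.116 CPM (counts scaled to the total of the library), which covers counting error only. The libraries named S8 and S9 carry the label HCT116 MSTRG.2513.6 KO but stood with A549: across genes, the correlation of their log2 CPM was 0.990 to 0.995 with A549 MSTRG.2513.6 KO and A549 WT B libraries and 0.916 to 0.927 with the other HCT116 libraries. S11, the remaining library of that label, correlated at 0.972 to 0.987 with the other HCT116 libraries. The 6 A549 markers (such as ALDH1A1 and AKR1B10) summed to between 9140 and 13036 CPM in A549, to between 12092 and 12185 CPM in S8 and S9, and to between 5.02 and 12.2 CPM in the other HCT116 libraries. The 6 markers chosen for HCT116 summed to between 256 and 569 CPM in HCT116 without S8 and S9, to between 8.35 and 25.9 CPM in A549, and to between 8.07 and 10.6 CPM in S8 and S9. In A549 WT B against HCT116 WT B, however, EPCAM, ESRP1 and CDX2 were lower and VIL1, CDH17 and LGALS4 higher, so only 3 of the 6 marked HCT116. Results that rest on S8 and S9 are given with and without them, except that the fit of all HCT116 libraries together was run only with them.

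Several members are near copies of each other, and their sequences are shown first because they set how well counts can be assigned. All 29 genes lie on X, 26 of them protein-coding, and MAGEA5, MAGEA7P and MAGEA13P annotated as pseudogenes. MAGEA3, MAGEA2B, MAGEA12, MAGEA2 and MAGEA6 form a cluster of 5 within 70.95 kb (chrX:152698767-152769716, GRCh38), with MAGEA3 and MAGEA6 at its ends on opposite strands. MAGEB2, MAGEB3, MAGEB4 and MAGEB1 form a cluster of 4 within 36.5 kb (chrX:30215563-30252040), all on the + strand. The coding sequences of MAGEA3 and MAGEA6, each in 1 exon of the gene, are 942 bases long and differ at 18 bases, an identity of 98.1%. The longest run without a difference is 308 bases. The stretch of coding bases 434 to 523 holds 4 of the differences, shown in capitals, in MAGEA3 (chrX:152701266-152701355, + strand) and in MAGEA6 (chrX:152767128-152767217, - strand).
MAGEA3: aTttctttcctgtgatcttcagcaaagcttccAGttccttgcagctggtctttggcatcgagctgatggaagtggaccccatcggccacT
MAGEA6: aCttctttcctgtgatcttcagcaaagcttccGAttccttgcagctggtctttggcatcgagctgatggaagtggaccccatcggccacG
Of the 100-base windows in the annotated exons, 35.8% of those of MAGEA3 occur unchanged in another member, above all in MAGEA6, and 34.1% of those of MAGEA6 occur unchanged in another member. The share was 89.4% for MAGEA2 and 82.4% for MAGEA2B, which have identical coding sequences, and 90.1% for MAGEA9 and 80.0% for MAGEA9B, which also have identical coding sequences. It was 0% for MAGEB1, MAGEB2, MAGEB17, MAGEA5 and MAGEA8. Values of MAGEA3 against MAGEA6 are therefore uncertain in part, and values of MAGEA2 against MAGEA2B and of MAGEA9 against MAGEA9B are uncertain throughout.

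The promoters of MAGEA3, MAGEA6, MAGEA2, MAGEA2B, MAGEB2 and MAGEB1 are shown because the CG sites in them, in capitals, are where methylation is known to silence these genes. Each run is the 250 bases before a start site listed by RefSeq (GRCh38.p14), read 5′ to 3′ on the strand of the gene. MAGEA3 (chrX:152698544-152698793, + strand) and MAGEA6 (chrX:152769690-152769939, - strand) have the same 250 bases, with 15 CG sites. MAGEA2B (chrX:152714378-152714627, + strand) and MAGEA2 (chrX:152753843-152754092, - strand) likewise share 1 sequence, with 11 CG sites. The run before another listed start of MAGEA2 (chrX:152753885-152754134), not shown, holds 9 CG sites. MAGEB2 (chrX:30215313-30215562, + strand) has 15 CG sites. MAGEB1 has 2 listed starts, and the run before the downstream start (chrX:30246896-30247145, + strand), with 13 CG sites, is shown.
MAGEA3 and MAGEA6: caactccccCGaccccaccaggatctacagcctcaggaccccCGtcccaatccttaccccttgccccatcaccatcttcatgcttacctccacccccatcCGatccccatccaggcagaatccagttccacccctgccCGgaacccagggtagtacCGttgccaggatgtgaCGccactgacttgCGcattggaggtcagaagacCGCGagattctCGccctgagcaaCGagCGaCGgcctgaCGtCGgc
MAGEA2 and MAGEA2B: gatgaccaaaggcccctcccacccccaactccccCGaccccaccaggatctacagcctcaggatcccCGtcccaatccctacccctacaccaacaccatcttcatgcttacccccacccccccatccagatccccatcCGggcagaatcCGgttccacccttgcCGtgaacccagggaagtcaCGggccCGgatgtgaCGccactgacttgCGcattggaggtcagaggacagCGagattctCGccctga
MAGEB2: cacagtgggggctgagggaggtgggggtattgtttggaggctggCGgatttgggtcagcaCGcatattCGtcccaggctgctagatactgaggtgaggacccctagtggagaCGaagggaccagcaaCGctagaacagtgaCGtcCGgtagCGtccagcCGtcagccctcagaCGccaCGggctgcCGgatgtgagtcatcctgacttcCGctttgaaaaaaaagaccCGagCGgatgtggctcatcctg
MAGEB1: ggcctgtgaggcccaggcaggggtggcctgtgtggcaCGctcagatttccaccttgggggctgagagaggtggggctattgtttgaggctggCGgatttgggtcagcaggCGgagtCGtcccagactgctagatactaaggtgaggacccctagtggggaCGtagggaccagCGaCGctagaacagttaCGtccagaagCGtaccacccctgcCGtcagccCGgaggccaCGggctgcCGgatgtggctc
The run before the upstream start of MAGEB1 holds 1 CG site, and the counts do not tell which start was used. Over the 31 listed promoters of 23 members the number of CG sites was 1 to 18 with a median of 8, against a median of 11 over all 35116 listed promoters. The letters CCGGAA, which hold the GGAA core of sites for ETS factors, were searched on both strands and occurred in 4 of the 31 promoters, those of MAGEA3 and MAGEA6 among them, and in 14.5% of all promoters. No other letters were searched, so promoters without CCGGAA are not shown to lack sites for ETS factors. These matches are descriptions of the letters only, since neither methylation nor binding was measured.

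The lines differed in the levels of the members, and MAGEA3 and MAGEA6 were counted in both. The summed level of the family was 17.1 to 28.4 CPM in A549 WT B, 352 to 359 CPM in HCT116 WT B and 209 to 288 CPM in HCT116 WT A. In bulk RNA a lower level can mean fewer cells with the transcript or less of it per cell, and these cannot be told apart. Counts above 0 were found for 14 members in any A549 library and for 23 in any HCT116 library other than S8 and S9. These numbers come from 9 and 13 libraries of unequal depth and include members with at most 1 count, such as MAGEB10 in A549 and MAGEB4 in HCT116. A comparison called a gene when |log2(fold change)| was above 1 and the false discovery rate (FDR, Benjamini-Hochberg, over all genes tested by quasi-likelihood in edgeR) was below 0.1. In A549 WT B against HCT116 WT B 35.7% of all genes tested were called (17.2% higher, 18.5% lower in A549), and all 9 members tested were called, 2 higher in A549 and 7 lower.

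MAGEA6 was the leading member of A549. It had 1205, 1356 and 516 counts in the WT B libraries S20, S21 and S22, a level of 18.6 ± 5.45 CPM (SD, n = 3). In HCT116 WT B (S12, S13 and S14) it had 347, 506 and 475 counts, or 7.47 ± 0.737 CPM. The groups did not overlap, and MAGEA6 was higher in A549 by 1.59 on the log2 scale (SE 0.25, adjusted p = 0.00117). MAGEA5, a pseudogene copy, followed with 20, 15 and 11 counts in A549 WT B against 4, 0 and 0 in HCT116 WT B (log2 difference 3.76, SE 0.97, adjusted p = 0.0127). That difference was 3.16 to 7.15 when 1 library was left out, with the highest value without S12, which held all 4 HCT116 counts.

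MAGEB2 and MAGEA3 led in HCT116. MAGEB2, a testis gene of the MAGEB cluster, had 7996, 9219 and 8434 counts in HCT116 WT B, 145 ± 6.30 CPM, and 0 counts in each of the 9 A549 libraries. MAGEA3 had 5505, 6640 and 6439 counts in HCT116 WT B, 105 ± 1.83 CPM, against 267, 278 and 170 counts in A549 WT B, 4.43 ± 0.305 CPM. The difference was -4.30 on the log2 scale (SE 0.10, adjusted p = 9.19e-08), the opposite direction from MAGEA6. MAGEA2 and MAGEA2B reached 46.8 ± 0.584 and 44.2 ± 1.19 CPM in HCT116 WT B and 0 to 4 counts per library in A549 WT B. MAGEB17, which lies on X apart from both clusters, had 206, 237 and 232 counts in HCT116 WT B and 11, 0 and 0 in A549 WT B. MAGEA8 (22, 31 and 43 counts) and MAGEB1 (38, 24 and 34 counts) were low in HCT116 WT B and at 0 in A549 WT B.

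Per kb of annotated exon, the order in HCT116 WT B was MAGEB2 at 90.5 ± 3.92, MAGEA3 at 59.3 ± 1.03, MAGEA2 at 20.6 ± 0.257, MAGEA2B at 18.2 ± 0.491, MAGEA6 at 4.08 ± 0.402, MAGEB17 at 2.38 ± 0.0750, MAGEB1 at 0.278 ± 0.0881 and MAGEA8 at 0.228 ± 0.0659 CPM per kb. Only the last neighbours, MAGEB1 and MAGEA8, had overlapping ranges there. In A549 WT B the order was MAGEA6 at 10.1 ± 2.97, MAGEA3 between 2.31 and 2.64, and MAGEA5 at 0.303 ± 0.0502 CPM per kb, again without overlap.

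**Figure D1:**
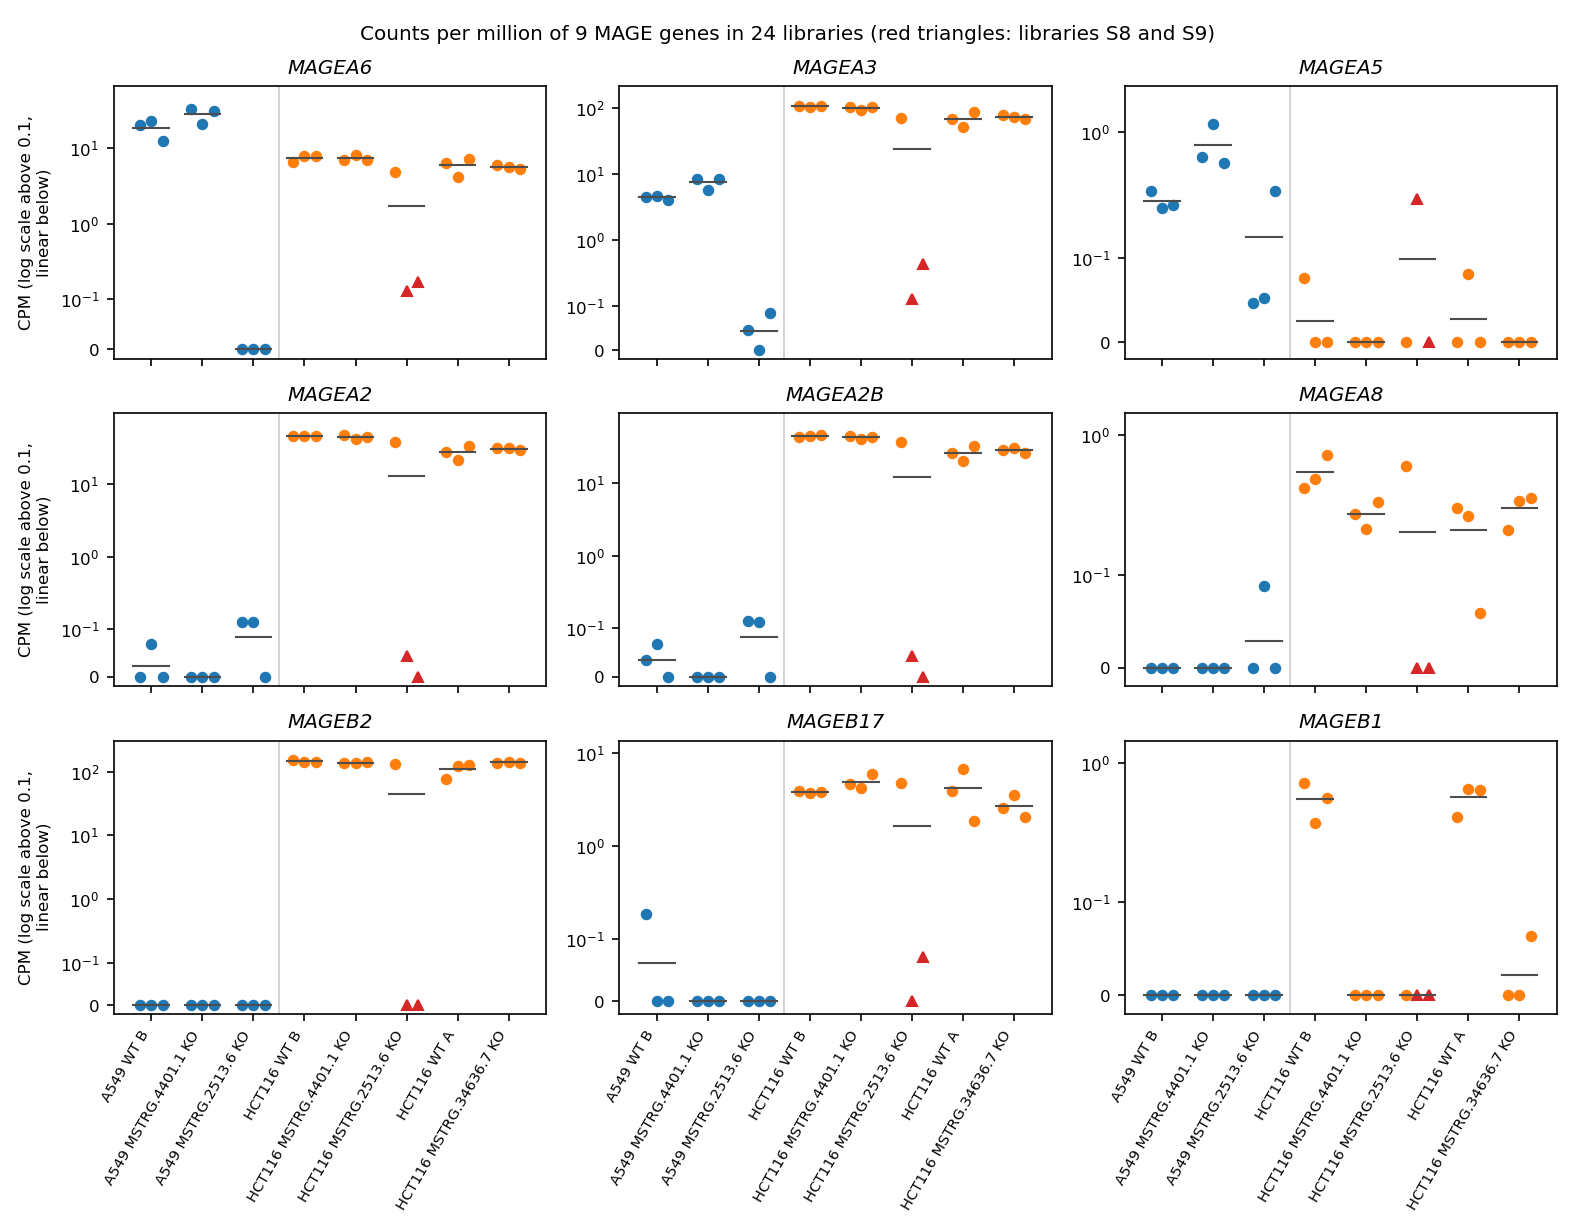
CPM (logarithmic above 0.1, linear below) of 9 MAGE genes in each library, by group, with A549 in blue, HCT116 in orange, the libraries S8 and S9 as red triangles and a bar at the mean of each group of 3. MAGEA6 and MAGEA5 lie higher in A549 WT B than in HCT116, the other genes lie higher in HCT116, S8 and S9 lie with the A549 MSTRG.2513.6 KO libraries for most genes, and MAGEB1 is at or near 0 in every KO group of HCT116.

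The split of counts between MAGEA3 and MAGEA6 separated the lines. MAGEA6 took 81.9%, 83.0% and 75.2% of the summed MAGEA3 and MAGEA6 counts in A549 WT B and 78.6% to 79.9% in the MSTRG.4401.1 KO of that line. In 13 HCT116 libraries, S8 and S9 left aside, it took between 5.93% and 8.66%. The 2 sets of libraries did not overlap, and the lowest bound of a Wilson 95% interval in A549 was 71.9% (S22) and the highest in HCT116 was 9.58% (WT A library 1A), for counting error only. The 2 promoters shown above as 1 sequence thus belonged to genes with opposite ratios of counts in the 2 lines. MAGEA2B took between 46.5% and 48.9% of the summed MAGEA2 and MAGEA2B counts in the same 13 libraries. MAGEA9 and MAGEA9B had equal counts in each of the 24 libraries.

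**Figure D2:**
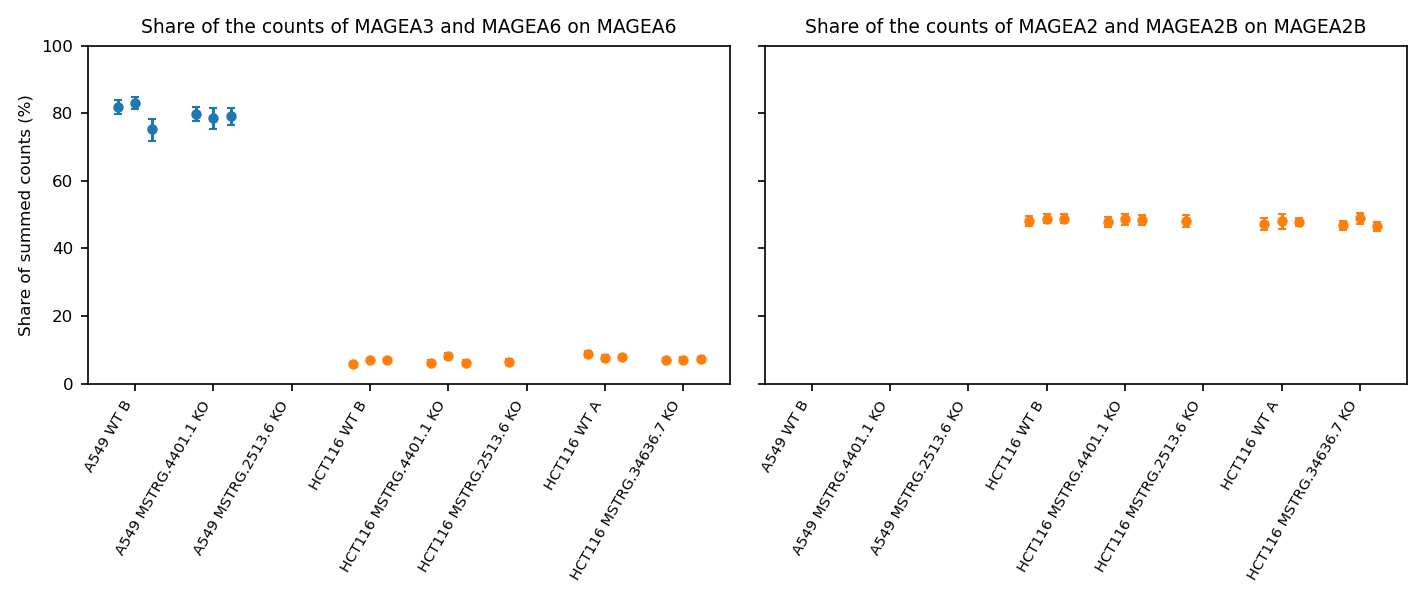
Share (%) of the summed counts of MAGEA3 and MAGEA6 that fell on MAGEA6 (left) and of MAGEA2 and MAGEA2B that fell on MAGEA2B (right), in each library with at least 100 summed counts, with Wilson 95% intervals. The A549 libraries lie between 75.2% and 83.0% on the left and the HCT116 libraries between 5.93% and 8.66%, while on the right the HCT116 libraries lie between 46.5% and 48.9%.

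The summed level of the family in A549 MSTRG.2513.6 KO was 0.734 to 0.984 CPM, against 17.1 to 28.4 CPM in WT B, and this is the contrast from which the family was chosen. MAGEA6 had 0 counts in S17, S18 and S19. With the floor of 3 counts per library, that is at least 340.5-fold lower than in WT B. MAGEA3, which the choice did not name but which shares its sequence, had 3, 0 and 4 counts (0.0442 ± 0.0429 CPM) against 267, 278 and 170. Summed over both copies the level was 0 to 0.0856 CPM against 16.5 to 27.5 CPM, so the sum of the copies was lower as each copy was. MAGEA5 had 3, 3 and 16 counts against 20, 15 and 11, and the groups overlapped. Of the 3 members tested 2 were called, both lower, where 2.92% of all genes tested were called (1.13% higher, 1.79% lower), and nothing is read from that count. The WT B libraries of this contrast are also those of the MSTRG.4401.1 KO comparison and of the comparison of the lines.

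Members that were low or at 0 in WT B stayed low in these KO libraries. MAGEA2 had 8, 7 and 0 counts and MAGEA2B the same, against 0, 4 and 0 and 2, 4 and 0 in WT B. MAGEA12, which lies between them in the cluster, had 7, 0 and 19 counts against 0, 5 and 8. MAGEA10 had 4, 8 and 0 counts against 17, 10 and 0. The ranges overlapped in each case.

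Genes of other families around the cluster were looked at after these values had been seen. Of the genes within 1 Mb of the cluster, 22 that are not members were tested in A549 MSTRG.2513.6 KO, of which 3 were called lower and 1 higher. GABRA3, which encodes a subunit of the GABA type A receptor and lies at lower coordinates than the cluster, was at 0 in each KO library (n = 3) and at 2.43 ± 0.394 CPM in WT B. GABRQ, another subunit of that receptor, lies 41224 bp from MAGEA3 and had 0.317 ± 0.0833 CPM in KO and 5.29 ± 0.679 CPM in WT B. KRT8P8, a keratin pseudogene between them, had 0.0714 ± 0.0695 CPM in KO and 0.543 ± 0.181 CPM in WT B. At higher coordinates CETN2, which encodes a centrin and lies 57277 bp from MAGEA6, had 23.1 ± 6.81 CPM in KO and 26.3 ± 3.78 CPM in WT B, and the ranges overlapped. PNMA6A, farther on, was the gene called higher (8.94 ± 1.05 against 4.01 ± 0.622 CPM). The libraries S8 and S9 had 6 and 18 counts of MAGEA3 and 6 and 7 counts of MAGEA6, between the 2 A549 groups and nearer to MSTRG.2513.6 KO.

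**Figure D3:**
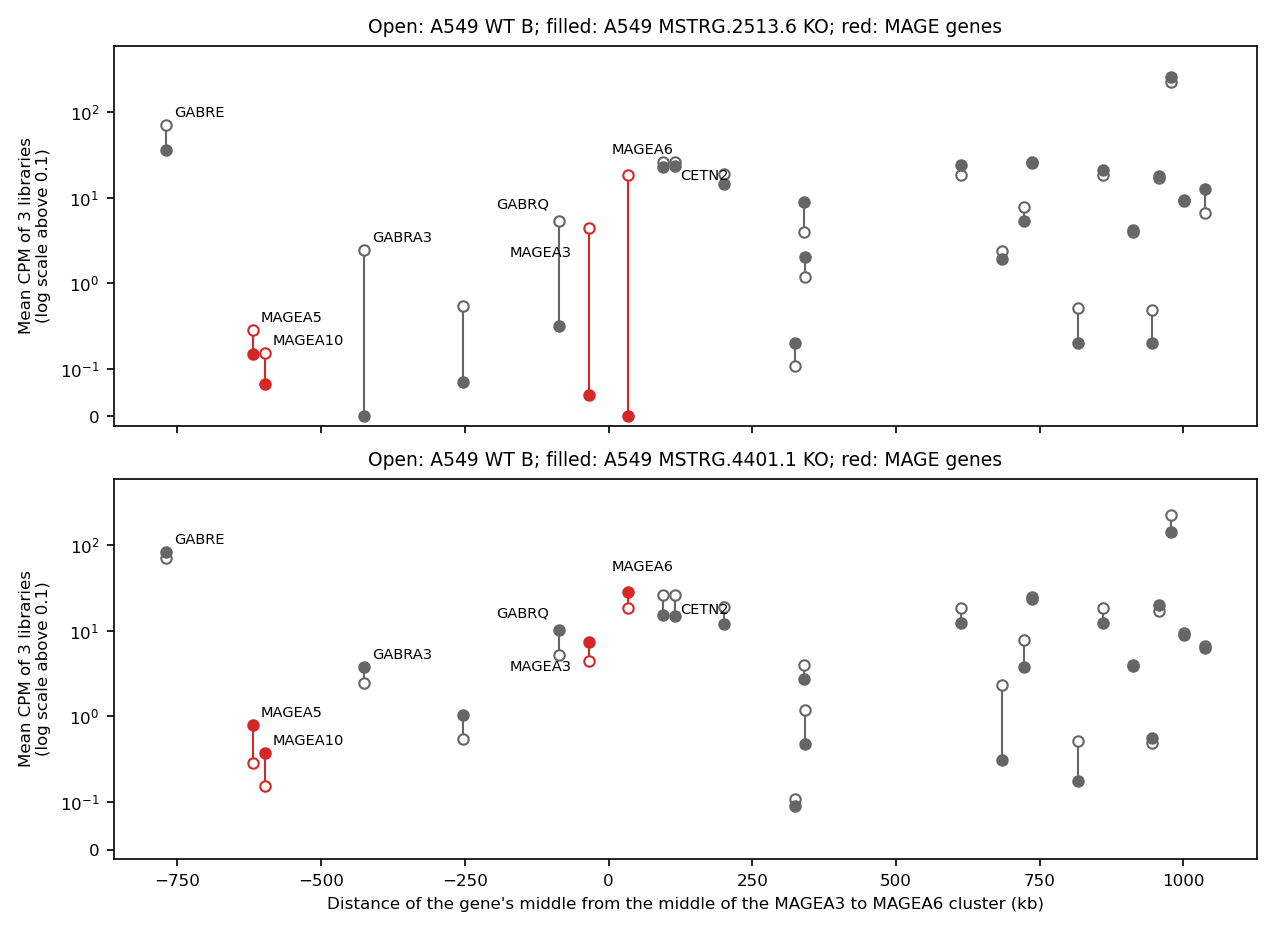
Mean CPM of 3 libraries (logarithmic above 0.1, linear below) of the genes tested in either A549 KO comparison, by the distance in kb from the middle of the MAGEA3 to MAGEA6 cluster, with WT B as open circles, the KO as filled circles and MAGE genes in red. In MSTRG.2513.6 KO (top) GABRA3, GABRQ, MAGEA3 and MAGEA6 lie far below WT B while CETN2 lies near it. In MSTRG.4401.1 KO (bottom) the same genes other than CETN2 lie above WT B, and CETN2 lies below it.

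In A549 MSTRG.4401.1 KO 15.4% of all genes tested were called (11.1% higher, 4.32% lower) and 1 of the 4 members tested, MAGEA5, was called. MAGEA5 had 21, 30 and 15 counts in S23, S24 and S25 against 20, 15 and 11 in WT B, and because the KO libraries were shallower the levels were 0.789 ± 0.325 against 0.286 ± 0.0473 CPM, without overlap. It was higher by 1.36 on the log2 scale (SE 0.46, adjusted p = 0.0509), from few counts. Without S24 the difference was 0.97 (adjusted p = 0.196), without the WT B library S21 it was 1.23 (adjusted p = 0.159), and without S22 it was 1.23 (adjusted p = 0.125), so the call rested on each of these libraries.

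MAGEA3 passed the FDR but not the fold threshold in the same comparison. It had 282, 146 and 218 counts, 7.49 ± 1.59 CPM against 4.43 ± 0.305 CPM, without overlap (log2 difference 0.67, SE 0.22, adjusted p = 0.0435). MAGEA6 had 1120, 537 and 825 counts, 28.7 ± 6.89 against 18.6 ± 5.45 CPM, with overlap (0.53, SE 0.27, adjusted p = 0.157). MAGEA10 had 10, 11 and 10 counts against 17, 10 and 0, with every KO level above every WT B level (1.09, SE 0.88, adjusted p = 0.362). The median over all genes tested was 0.12 on the same scale. These KO libraries were also the shallowest, at 25799359 to 33205007 counts, and mitochondrial genes took 6.10% ± 2.30 of their counts against 2.11% ± 0.221 in WT B. Of the markers chosen for HCT116, 5 of 6 could be tested here, VIL1 was higher by 1.47 (adjusted p = 0.00354) and CDX2 lower by a log2 difference of -3.43 (adjusted p = 0.0307), and the list summed to 19.5 to 25.9 CPM against 10.9 to 15.1 CPM. The part of depth, mitochondrial share and these markers in the MAGE values was not tested. GABRQ, the neighbour of MAGEA3, stood at 10.2 ± 1.34 CPM against 5.29 ± 0.679 CPM (log2 difference 0.87, SE 0.17, adjusted p = 0.00611), and GABRA3 at 3.76 ± 0.470 against 2.43 ± 0.394 CPM (0.56, SE 0.22, adjusted p = 0.0808). Neither reached the fold threshold. The region did not rise as a whole. Of the genes within 1 Mb of the cluster, 21 that are not members were tested here, of which 3 were called lower and 0 higher. Their median log2 difference was -0.64.

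The same DBD was removed in HCT116, so the effect of MSTRG.4401.1 KO could be compared between lines for members counted in both. MAGEA8, MAGEB1, MAGEB2 and MAGEB3 had 0 counts in the A549 libraries of this test, and MAGEA10 had 0 in the HCT116 ones. The test could not show a difference for these members. The interaction of KO and line was below an FDR of 0.1 for 26.9% of all genes tested and for 2 of the 11 members tested. For MAGEA3 the KO effect was larger in A549 by 0.72 on the log2 scale (SE 0.21, adjusted p = 0.0275), 0.64 in A549 against -0.09 in HCT116. It stayed below an FDR of 0.1 without each of the 12 libraries in turn, with values of 0.57 to 0.90. MAGEA2B was the other member, and its value rested on A549 counts of 2, 4 and 0 in WT B and 0 in each KO library. The mean of WT B there was below the floor of the KO libraries, and the adjusted p was above 0.1 without each of 9 of the 12 libraries in turn (0.0414 to 0.284 over all 12). For MAGEA6 the interaction was 0.54 (SE 0.35, adjusted p = 0.315).

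MAGEB1 was the member called in each HCT116 KO comparison. MAGEB1 encodes a MAGE protein of the testis and is the last gene of the MAGEB cluster. The 6 wild-type HCT116 libraries had between 22 and 66 counts: 38, 24 and 34 in WT B and 22, 32 and 66 in WT A. The 7 HCT116 KO libraries other than S8 and S9 had 0 counts in 6 and 6 counts in the seventh, the 3A library of MSTRG.34636.7 KO. S8, S9 and all 9 A549 libraries had 0. The gene shares no 100-base window with another member. MAGEB4, which it overlaps on the same strand, had 1 count in 1 of the 24 libraries.

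In HCT116 MSTRG.4401.1 KO against WT B, where 2.62% of all genes tested were called (0.996% higher, 1.62% lower), MAGEB1 was the only one of the 9 members tested that was called. It had 0 counts in S10, S15 and S16 against 0.555 ± 0.176 CPM in WT B, at least 8.74-fold lower with the floor of 3 counts per library (adjusted p = 0.00666). With all 15 HCT116 libraries in 1 fit, which includes S8, S9 and S11, the adjusted p was 0.222. In HCT116 MSTRG.34636.7 KO against WT A, where 1.34% of all genes tested were called (0.729% higher, 0.607% lower), MAGEB1 was again the only one of 9 members tested that was called, at 0.0213 ± 0.0369 against 0.570 ± 0.136 CPM (log2 difference -4.50, SE 0.96, adjusted p = 0.0876). That call was lost without the KO library 1A (adjusted p = 0.269) or 2A (adjusted p = 0.284), and without the WT A library 1A, 2A or 3A (adjusted p = 0.106 to 0.157). The counts of KO and WT A did not overlap.

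In HCT116 MSTRG.2513.6 KO against WT B, where 0.933% of all genes tested were called (0.66% higher, 0.273% lower), MAGEB1 was the only one of the 8 members tested that was called, with 0 counts in S8, S9 and S11 (adjusted p = 0.0977). Without S8 and S9, S11 alone was set against WT B on the assumption that it varies as the WT B libraries do, 8.69% of all genes tested were called, and MAGEB1 was the only one of 9 members (adjusted p = 0.0170). Without S11, the 2 libraries that stand with A549 gave 10 called members. MAGEA2, MAGEA2B, MAGEA3, MAGEA6, MAGEA8, MAGEB1, MAGEB17 and MAGEB2 were lower, and MAGEA4 and MAGEA12 higher. The share of all genes called in that fit was not taken, so nothing is read from this count. Between the lines themselves, in A549 WT B against HCT116 WT B, 35.7% of all genes tested were called. The call of MAGEB1 was also lost without S8 (adjusted p = 0.322), without S9 (adjusted p = 0.348) and without the WT B library S12 (adjusted p = 0.417), S13 (adjusted p = 0.425) or S14 (adjusted p = 0.420). The MSTRG.4401.1 KO comparison shares its WT B libraries with that of MSTRG.2513.6 KO, and that of MSTRG.34636.7 KO has its own wild type.

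**Figure D4:**
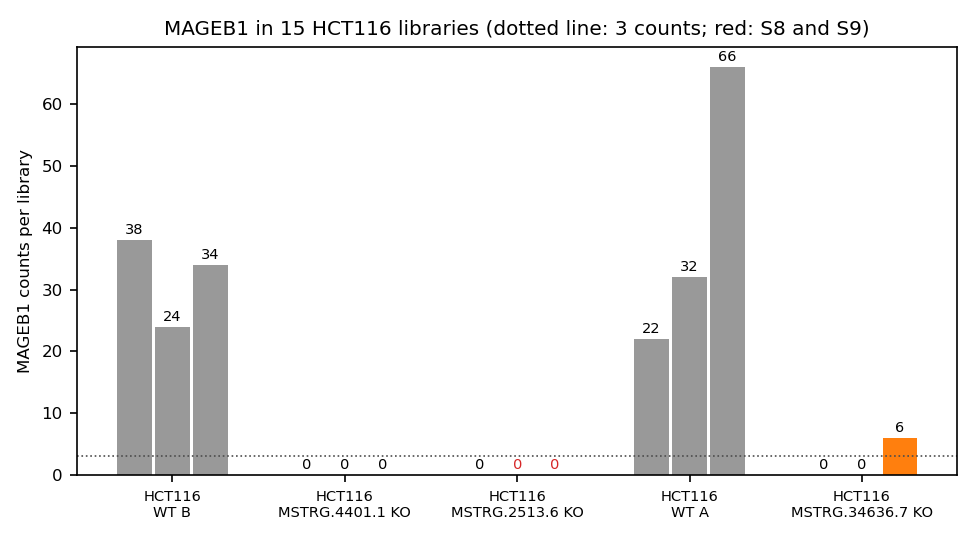
MAGEB1 counts in each of the 15 libraries labelled HCT116, with wild type in grey, KO in orange, the libraries S8 and S9 in red lettering and a dotted line at 3 counts. The 6 wild-type libraries lie between 22 and 66 counts, and of the KO libraries only 3A of MSTRG.34636.7 KO, with 6 counts, lies above 0.

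Of the genes around MAGEB1, MAGEB2, MAGEB3 and IL1RAPL1 were tested and not called in the comparisons given here. MAGEB4, which overlaps MAGEB1, was not tested. NR0B1, a gene of another family 52165 bp from MAGEB1, was not tested either, with 0 counts in both HCT116 wild types and both of these KOs. Whether MAGEB4 and NR0B1 differed therefore cannot be told. MAGEB2, the first gene of the cluster and the most abundant member of HCT116, had 6943, 5892 and 6749 counts in MSTRG.4401.1 KO, 137 ± 2.55 against 145 ± 6.30 CPM in WT B (log2 difference -0.10, SE 0.04, adjusted p = 0.197), and the groups did not overlap. In MSTRG.34636.7 KO it had 12682, 8479 and 12918 counts, 139 ± 2.37 against 108 ± 28.1 CPM in WT A (0.36, SE 0.19, adjusted p = 0.433), again without overlap. MAGEB3, between them, had 3, 12 and 11 counts in MSTRG.4401.1 KO against 2, 15 and 0, and 18, 19 and 34 in MSTRG.34636.7 KO against 25, 20 and 0, with overlap in both. IL1RAPL1, a synaptic adhesion protein gene which lies 286996 bp from MAGEB1, differed by 0.03 (SE 0.11, adjusted p = 0.887) in MSTRG.4401.1 KO. In MSTRG.34636.7 KO it stood at 22.3 ± 2.05 against 11.4 ± 3.04 CPM (0.96, SE 0.21, adjusted p = 0.0926), short of the fold threshold. Of the 3 genes of other families tested within 1 Mb of the cluster in MSTRG.4401.1 KO, TAB3 was called higher (1.13, SE 0.28, adjusted p = 0.0408).

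The abundant members were not called in either of the 2 HCT116 KOs with 3 libraries that stood with their line. MAGEA3 had 5363, 3955 and 5037 counts in MSTRG.4401.1 KO, between 92.7 and 104.1 CPM against 105 ± 1.83 CPM (log2 difference -0.08, SE 0.05, adjusted p = 0.402), and 7191, 4378 and 6436 in MSTRG.34636.7 KO, 73.5 ± 4.92 against 68.4 ± 17.3 CPM (0.08, SE 0.21, adjusted p = 0.886). MAGEA6 differed by -0.03 (SE 0.14) and -0.10 (SE 0.25), MAGEA2 by -0.05 (SE 0.06) and 0.13 (SE 0.19), and MAGEA2B by -0.07 (SE 0.06) and 0.12 (SE 0.20) in the same comparisons, none past the FDR.  MAGEB17 differed by 0.35 (SE 0.16, adjusted p = 0.213) in MSTRG.4401.1 KO, with every KO library above every WT B library, and by -0.61 (SE 0.42, adjusted p = 0.533) in MSTRG.34636.7 KO.

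MAGEA8 came nearest to a call among the others. It had 14, 9 and 16 counts in MSTRG.4401.1 KO, 0.271 ± 0.0598 against 0.539 ± 0.156 CPM in WT B, without overlap, and the log2 difference of -0.999 (SE 0.38, adjusted p = 0.146) passed neither threshold. In WT A it stood at 0.208 ± 0.131 CPM. In S11, MAGEA3 had 2543 counts, MAGEA6 176, MAGEA2 1405, MAGEA2B 1303, MAGEB2 4838 and MAGEB17 175. S11 alone against WT B gave -0.67 for MAGEA3 (SE 0.06, adjusted p = 0.00185) and -0.21 for MAGEB2 (SE 0.06, adjusted p = 0.0637), below the fold threshold and from 1 library. S11 also had more of the A549 markers, 12.2 CPM in sum against 5.42 to 6.19 CPM in WT B, with HTRA1 and AKR1C1 called higher, and their part in its values was not tested.

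**Figure D5:**
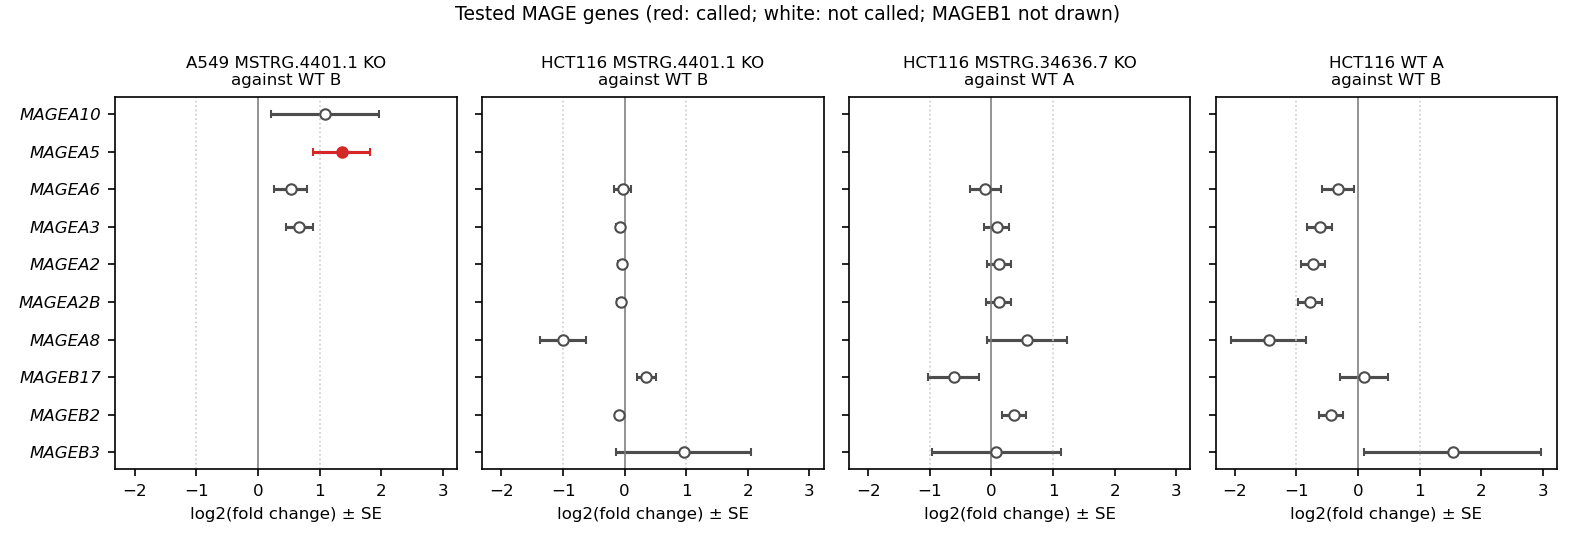
log2(fold change) ± SE from edgeR of the tested members other than MAGEB1 in 4 comparisons of 3 libraries each, with called genes in red, other genes as open circles and dotted lines at -1 and 1. MAGEA5 in A549 MSTRG.4401.1 KO is the only member drawn in red, MAGEA2, MAGEA2B, MAGEA3 and MAGEA6 lie between -0.10 and 0.13 in the HCT116 KOs, and in WT A against WT B, where none is called, they lie between -0.78 and -0.32.

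The wild types of HCT116 were compared with each other in the same way. In WT A against WT B, where 7.06% of all genes tested were called (3.16% higher, 3.9% lower), none of the 9 members tested was called by edgeR, and MAGEA2, MAGEA2B, MAGEA3 and MAGEA8 had unadjusted p-values under 0.05 (0.00484, 0.00347, 0.0153 and 0.0440), as had 22.1% of all genes tested. MAGEA2 had 1508, 1069 and 3514 counts in WT A, 28.2 ± 6.29 against 46.8 ± 0.584 CPM (log2 difference -0.74, SE 0.19, adjusted p = 0.0552), and MAGEA2B stood 0.78 lower (SE 0.19, adjusted p = 0.0440). MAGEA3 had 3596, 2529 and 8807 counts, 68.4 ± 17.3 against 105 ± 1.83 CPM (-0.62, SE 0.20, adjusted p = 0.114), and MAGEB2 had 4030, 6043 and 12849, 108 ± 28.1 against 145 ± 6.30 CPM (-0.44, SE 0.20, adjusted p = 0.245). Every WT A library lay below every WT B library for MAGEA2, MAGEA2B, MAGEA3 and MAGEB2. MAGEA6 differed by -0.32 (SE 0.26, adjusted p = 0.515) and MAGEB17 by 0.10 (SE 0.39, adjusted p = 0.914), both with overlap. DESeq2 also called 0 members. MAGEB1 differed by 0.04 (SE 0.38), and its ranges overlapped. WT A spread widely within itself, with MAGEB17 between 1.89 and 6.80 CPM.

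The remaining 20 members never reached a group mean of 0.5 CPM. Their highest group mean was 0.370 CPM, that of MAGEA10 in A549 MSTRG.4401.1 KO, and their highest count was 34, that of MAGEB3. MAGEA13P, MAGEB16, MAGEB18 and MAGEB5 had 0 counts in all 24 libraries. MAGEA4 was counted in S8, S9 and S11 alone, with 11 in S8, 10 in S9 and 3 in S11 and 0 in the other 21. MAGEA10 was counted in A549 alone, in 7 of its 9 libraries. MAGEC2, which binds TRIM28 as MAGEA3 does, had 4, 4 and 4 counts in HCT116 WT B and 12 in 1 WT A library. MAGEA12, MAGEA1, MAGEA11, MAGEA7P, MAGEA9, MAGEA9B, MAGEB4, MAGEB6, MAGEB6B, MAGEB10, MAGEC1 and MAGEC3 stayed at 19 counts or fewer. Of these 20, only MAGEB3 and MAGEA10 passed the filter on low counts in a comparison with all its libraries, and neither was called there. MAGEA10 was called higher in A549 WT B than in HCT116 WT B without S22 (adjusted p = 0.00880), without S12 (adjusted p = 0.0718) and with no filter (adjusted p = 0.0570). With no filter edgeR also called MAGEB6 higher there (log2 difference 5.44, adjusted p = 0.0868) and MAGEC2 lower (-4.88, adjusted p = 0.0530), both from few counts.

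Few other cancer-testis genes on X could be tested. Of 81 such genes (among them the CSAG, GAGE, SSX, CT45 and SPANX families) between 2 and 4 could be tested in the KO comparisons. The 1 called with all libraries was SPANXB1, a sperm nuclear protein gene, higher in A549 MSTRG.4401.1 KO (1.24 ± 0.259 against 0.331 ± 0.186 CPM, log2 difference 1.86, SE 0.47, adjusted p = 0.0181). Without S8 and S9, S11 alone had 17 counts of PAGE2B against 0 in each WT B library (adjusted p = 0.0615) and 0 counts of SSX1 against 7, 21 and 12 (adjusted p = 0.0861), both called. CSAG3, whose gene lies inside the MAGEA cluster, was lower in WT A than in WT B (2.80 ± 0.492 against 9.69 ± 0.423 CPM, -1.79, SE 0.22, adjusted p = 0.00139). It took 33.0% to 43.6% of the summed CSAG2 and CSAG3 counts in WT A and MSTRG.34636.7 KO but 65.7% to 74.3% in WT B, MSTRG.4401.1 KO and S11. The sum of CSAG2 and CSAG3 fell less, at 7.21 ± 0.406 CPM in WT A against 13.8 ± 0.955 CPM in WT B. How reads were divided between these 2 genes is not given. The summed level of the 81 genes was 3.01 to 6.13 CPM in A549 and 6.59 to 15.1 CPM in HCT116 without S8 and S9.

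MAGE genes outside the A, B and C groups are expressed in many tissues. Of 11 such genes, 8 were tested in A549 and 5 in the HCT116 KO comparisons. MAGED4 and MAGED4B, near-identical copies, were the only ones called in a KO comparison, lower in A549 MSTRG.4401.1 KO (for MAGED4 2.54 ± 0.443 against 10.2 ± 0.986 CPM, log2 difference -2.09, SE 0.20, adjusted p = 0.000382). The median of the 8 was -0.68 there, against 0.12 over all genes tested. No gene of this list was called in MSTRG.2513.6 KO of A549 or in an HCT116 KO.

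Partners of MAGE proteins, 11 genes among them the ligases TRIM28, TRIM27 and TRIM31 and the kinase subunit PRKAA1, were all tested in A549, and 10 of them in HCT116. TRIM31, a RING-type ligase, was the only one called in a KO comparison. It was called higher in A549 MSTRG.4401.1 KO (2.55 ± 1.00 against 0.753 ± 0.194 CPM, log2 difference 1.66, SE 0.39, adjusted p = 0.0133). In A549 MSTRG.2513.6 KO it was called lower, at 0.247 ± 0.106 CPM, where 1.79% of all genes tested were called lower. That value is given as description. TRIM28 had group means from 560 to 851 CPM.

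Genes of DNA methylation and silencing were measured because they act on cancer-testis promoters. Of 13 genes 12 were tested in each comparison, and none passed both thresholds of edgeR in a KO comparison with all its libraries. Without S8 and S9, EZH2, a histone methyltransferase gene, was called lower in S11 alone (-1.56, SE 0.39, adjusted p = 0.0418). At an unadjusted p under 0.05 stood 8 of the 12 in A549 MSTRG.4401.1 KO, where 45.3% of all genes tested did, 5 in HCT116 MSTRG.4401.1 KO (25.7% of all genes) and 2 in MSTRG.34636.7 KO (15% of all genes). The list did not move as 1: its median log2 difference in the A549 KO of MSTRG.4401.1 was 0.02, against 0.12 over all genes tested. DNMT3B, a de novo DNA methyltransferase, differed by 0.69 there (SE 0.12, adjusted p = 0.00491) and by 0.27 in the KO of HCT116 (SE 0.06, adjusted p = 0.0292). Other genes of the list were lower in the A549 KO, with UHRF1 at -0.85 and DNMT1 at -0.35 in the fit of the interaction. In HCT116 these stood at 0.26 and 0.27. In WT A against WT B, DNMT3B was lower (19.5 ± 5.58 against 44.3 ± 2.81 CPM, log2 difference -1.20, SE 0.20, adjusted p = 0.00840), as was TET3, which oxidises methylcytosine (-1.02, SE 0.27, adjusted p = 0.0565). Of 10 germ cell genes, 2 or 3 could be tested in a comparison. HORMAD1, a meiotic chromosome protein gene, was the only one called in a KO, higher in A549 MSTRG.4401.1 KO (1.64 to 4.26 against 0.917 to 1.66 CPM, 1.02, SE 0.37, adjusted p = 0.0638), and it was at or near 0 in HCT116 without S8 and S9.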

How the data were processed

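Total RNA of 24 libraries had been depleted of ribosomal RNA and sequenced from a directional kit. Per the submitters' notes the authors used Trim Galore 0.6.6, FastQC 0.11.9 and HISAT2 2.2.1 with hg38, and the paper names StringTie for quantifying expression. The deposited values are raw counts per gene symbol. The annotation release, the use of strand and how whole counts were obtained are not given in the sources used here, and how reads shared by near copies were assigned is likewise not given. Libraries were grouped by their labels. Symbols present in some libraries only (3) were left out.

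Counts were tested with edgeR 4.0.16 in R 4.3.3 (TMM scaling, filterByExpr, quasi-likelihood test, Benjamini-Hochberg adjustment over all genes tested) on the libraries of each comparison, and the scripts were tested on simulated data. A gene was called at |log2(fold change)| above 1 and FDR below 0.1. CPM used the total of each library. Alternatives, run for the members, were DESeq2 1.42.0, its size factors, no filter, FDR below 0.05 and all libraries of a line in 1 fit. Others were leaving out libraries, the other HCT116 wild type and a replicate block. The lowest chi-square per degree of freedom between libraries of a group was 17.5 over 24 pairs, so no 2 libraries of 1 group agreed within sampling noise, and pairs across groups were not compared this way. Positions are from GENCODE and promoters from RefSeq, both GRCh38. Members with a group mean of at least 0.5 CPM, and any that were called, were named with their values. The members and lists were chosen with earlier results of these data known.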

Additional observations from a re-analysis of the deposited data

Results flagged for a closer look

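The effect of MSTRG.4401.1 KO differed between A549 and HCT116 for 2 of the 11 members tested by the interaction test of edgeR (FDR below 0.1). Of all genes tested, 26.9% passed the same test. For MAGEA3 it was larger in A549 by 0.72 on the log2 scale (SE 0.21, adjusted p = 0.0275), with 3 of 3 A549 KO libraries above every A549 WT B library. For MAGEA2B the difference was -4.01 (SE 1.38, adjusted p = 0.0846), a fitted value that rested on 6 counts in all of A549 WT B and none in the KO, with the WT B mean below the floor of the KO libraries. Its adjusted p was above 0.1 without each of 9 of the 12 libraries in turn, and leaving out libraries gave values of -4.50 to -3.16.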

How the results depend on the processing

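Of the counts of called members, that of A549 MSTRG.4401.1 KO went from 1 to 0 at an FDR below 0.05 and with all libraries of the line in 1 fit, and was 0 to 1 when each library was left out. That of HCT116 MSTRG.4401.1 KO went from 1 to 0 with all HCT116 libraries in 1 fit, S8 and S9 among them. It was 1 under each library left out. DESeq2 gave MAGEB1 no adjusted p there (unadjusted p = 1.26e-07). That of HCT116 MSTRG.34636.7 KO went from 1 to 0 with no filter, at an FDR below 0.05 and with the replicate block. It also went to 0 with all HCT116 libraries in 1 fit, S8 and S9 among them, and was 0 to 1 under libraries left out. That of HCT116 MSTRG.2513.6 KO went from 1 to 0 with the size factors of DESeq2, with no filter and at an FDR below 0.05, and was 0 to 10 under libraries left out. Against the other HCT116 wild type, edgeR called MAGEB1 in MSTRG.4401.1 KO (adjusted p = 0.00340) and MSTRG.34636.7 KO (0.00795). It also called MAGEB1 in MSTRG.2513.6 KO with S8 and S9 (0.0506). DESeq2 with the main wild types called MAGEB1 in MSTRG.34636.7 KO (adjusted p = 0.000153) and MSTRG.2513.6 KO (6.49e-05). The count of members with an interaction went from 2 to 1 with no filter and was 1 to 3 under libraries left out. The cause of these changes was not tested. No value changed sign under the alternatives run. Of the other values, 168 kept their reading while 33 fell short of the threshold. The 168 include the contrast from which the family was chosen, the comparison of the lines and sums of copies, which have no threshold. With each library left out, the call of MAGEA5 in A549 MSTRG.4401.1 KO stayed in 3 fits and was lost in 3. That of MAGEB1 stayed in all 6 fits for HCT116 MSTRG.4401.1 KO. It stayed in 1 and was lost in 5 for MSTRG.34636.7 KO, and likewise for MSTRG.2513.6 KO.

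MSTRG.34636.7 KO and WT A share replicate numbers. Libraries with the same number correlated at 0.00953, 0.0171 and 0.0315 in their deviations, each highest with its own number and all under 0.1. With 3 libraries per group, values this small cannot decide whether libraries of the same number were paired. The replicate block moved the genes called from 385 to 166. Depth limits the members with few counts: 3 counts were 0.0293 to 0.116 CPM, and MAGEB1, MAGEA5 and MAGEA8 rested on at most 66 counts per library.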
